A study of Mus musculus with 16 samples.

Results

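The integrated stress response is the programme by which a cell that lacks amino acids, or is stressed in another way, slows protein synthesis and switches on a set of transcription factors and their targets. Its 10 regulators described here are Atf4, Atf5, Atf3, Ddit3, Cebpb, Cebpg, Ppp1r15a, Trib3, Chac1 and Sesn2, which were picked by gene symbol from a table of 12012 genes, and each symbol matched 1 row. They were followed over 4 levels of dietary valine, an essential amino acid, in a mouse T cell acute lymphoblastic leukaemia (T-ALL) that arises from NOTCH-ΔE, a truncated Notch receptor that signals without its ligand. C57BL/6 mice that carried secondary transplants of the tumours were kept for 3 weeks on a diet with 0 g/kg valine, with 0.4 g/kg, with 0.8 g/kg or with 8 g/kg, the control diet. The doses are those of the sample characteristics, whereas the treatment protocol describes the 2 intermediate doses as valine added to the drinking water of mice on the valine-deficient diet. All mice carried the same kind of tumour, and the leukaemic cells were taken from the spleen by sorting on GFP.

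Total RNA and ribosome-protected fragments (RPF), the mRNA footprints left under ribosomes after nuclease digestion, were sequenced from these cells with a commercial ribosome profiling kit. A diet was represented by a library of T-ALL 2 and a library of T-ALL 3 in each fraction, which gave 8 libraries a fraction. What separates T-ALL 2 from T-ALL 3 is not stated in the labels, so the p-values reflect the spread among these samples only, which may be technical. In bulk RNA, fewer cells of a type and less RNA per cell cannot be told apart.

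When eIF2α, a subunit of the factor that brings the initiator tRNA to the ribosome, is phosphorylated, translation falls for most mRNAs. A few mRNAs with short upstream open reading frames (uORFs) in their leaders, those of Atf4, Atf5, Ddit3 and Ppp1r15a among them, are translated better in that state. In amino acid shortage the sensor is the kinase GCN2 (Eif2ak4), which responds to uncharged tRNA. ATF4 protein then drives transcription of the other regulators and of genes for amino acid synthesis and uptake, and the product of Ppp1r15a closes the loop by directing the phosphatase PP1 to eIF2α.

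ATF4 acts through CARE sites (C/EBP-ATF response elements), and the related CRE site (cyclic AMP response element) is bound by other factors of the bZIP family, which pair through a leucine zipper. The promoters of the regulators were therefore read for both. RefSeq promoter windows of build GRCm38.p6, which run from 250 bases before to 50 bases after each transcript start, were found for all 10 genes and made 11 windows. On both strands, the letters TGATGNAA (CARE) stood in the windows of 3 genes, Atf3, Chac1 and Trib3, and in 3.97% of all 32851 promoter windows. The letters TGACGTCA (CRE) stood in the window of Ppp1r15a and in 1.79% of all windows. The stretches around 3 of these matches are shown because they are the sites that such factors could read in these genes. Each is given 5′ to 3′ on the gene's strand with the match in capitals. Those of Atf3 (chr1:191183396-191183483, minus strand) and Chac1 (chr2:119351009-119351096, plus strand) carry the motif on the opposite strand, so that TTGCATCA reads TGATGCAA in reverse. That of Ppp1r15a (chr7:45526269-45526320, minus strand) ends at the base before the transcript start.
Atf3: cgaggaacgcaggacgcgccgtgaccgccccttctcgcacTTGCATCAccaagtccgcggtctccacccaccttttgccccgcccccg
Chac1: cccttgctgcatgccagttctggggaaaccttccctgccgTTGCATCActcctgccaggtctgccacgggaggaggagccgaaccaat
Ppp1r15a: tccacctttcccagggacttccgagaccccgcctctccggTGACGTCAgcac
The match lay at -110 to -103 from the transcript start in Atf3, at -193 to -186 in Chac1 and at -12 to -5 in Ppp1r15a. In Trib3 the match TGATGTAA lay at 15 to 22 bases past the start. These are matches of letters and not measured binding, and the windows of the other 6 genes held neither string.

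Values are FPKM as deposited, fragments counted on a gene relative to its length and to the size of the library, and reads per gene were recovered from the steps between these values. Total RNA libraries held 364685 to 1269364 reads and RPF libraries 41848 to 205545 reads. Of the 0 and 8 g/kg libraries, those at 8 g/kg were the deeper for total RNA and the shallower for RPF in both T-ALLs. Depth limited the regulators unequally. Over all 8 total RNA libraries, Atf4 had 700 reads, Ppp1r15a 458, Atf5 226 and Cebpb 166, against 62 for Cebpg, 50 for Ddit3, 45 for Sesn2 and 16 for Trib3. Atf3 had 5 reads and Chac1 2 reads in total RNA, so neither could be followed there. In RPF only Atf4, with 167 reads, was above 0 in every library.

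A gene entered the test of a fraction when its mean was at least 1 FPKM over the 8 libraries. In total RNA 8 of the 10 regulators did, all but Atf3 and Chac1. In RPF 9 did, all but Sesn2, but Atf3 reached the mean through 1 library alone, T-ALL 2 at 0 g/kg with 2 reads. Both fractions together left 7 regulators for translational efficiency (TE), the log2 RPF value minus the log2 total RNA value of the same diet and T-ALL. Changes are differences of log2(FPKM + 0.5) with the standard error (SE) of limma's moderated two-sided test. For genes with low values they depend on the pseudocount: it understates their change in general, but where a control library has 0 reads the log2 difference can exceed the ratio of pooled reads.

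Ppp1r15a (GADD34), the regulatory subunit that brings PP1 to phosphorylated eIF2α, had, with Atf5, the largest total RNA differences of the tested regulators between the valine-free and the control diet, and the order of these 2 lies within their errors. Its total RNA was 64.3 FPKM in T-ALL 2 and 74.7 FPKM in T-ALL 3 at 0 g/kg, 18.2 and 28.2 FPKM at 0.4 g/kg, 21.5 and 14.1 FPKM at 0.8 g/kg, and 19.9 and 10.1 FPKM at 8 g/kg. Both valine-free libraries therefore lay above all 6 libraries with valine in the diet, by a wide gap, while the 3 diets with valine overlapped one another. Means were 69.5 ± 7.31 FPKM at 0 g/kg, 23.2 ± 7.05 FPKM at 0.4 g/kg, 17.8 ± 5.24 FPKM at 0.8 g/kg and 15.04 ± 6.92 FPKM at 8 g/kg (SD, n = 2 each). The log2 difference was 2.24 ± 0.37 (SE) at 0 against 8 g/kg. It did not pass the test over all genes (limma, Benjamini-Hochberg adjusted p = 0.20, unadjusted p = 0.00021). Against the mean of the 3 diets with valine it was 1.93 ± 0.30 (limma, adjusted p = 0.12). The diets of 0.4 and 0.8 g/kg differed from 8 g/kg by 0.65 ± 0.37 and 0.28 ± 0.37, and neither passed (limma, adjusted p = 1 in both).

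A count model came to another call for this gene. With limma's voom on the recovered reads, Ppp1r15a passed in total RNA at 0 against 8 g/kg, with a log2 change of 2.19 (adjusted p = 0.030), as 1 of 3 genes. It also passed against the 3 diets with valine, with a log2 change of 1.90 (adjusted p = 0.0057), as 1 of 26 genes. Pooled over the 2 libraries of a diet, Ppp1r15a held 204 of 1133055 total RNA reads at 0 g/kg, against 86 of 2115526 at 8 g/kg. That is a ratio of shares of 4.43, with an exact 95% counting interval of 3.43 to 5.77, which covers counting error only. By contrast Ppp1r15b, the constitutive partner of PP1, had 17.1 ± 2.67 FPKM at 0 g/kg and 19.3 ± 0.264 FPKM at 8 g/kg (SD, n = 2 each), a log2 difference of -0.18 ± 0.29 (limma, adjusted p = 0.95).

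**Figure D1:**
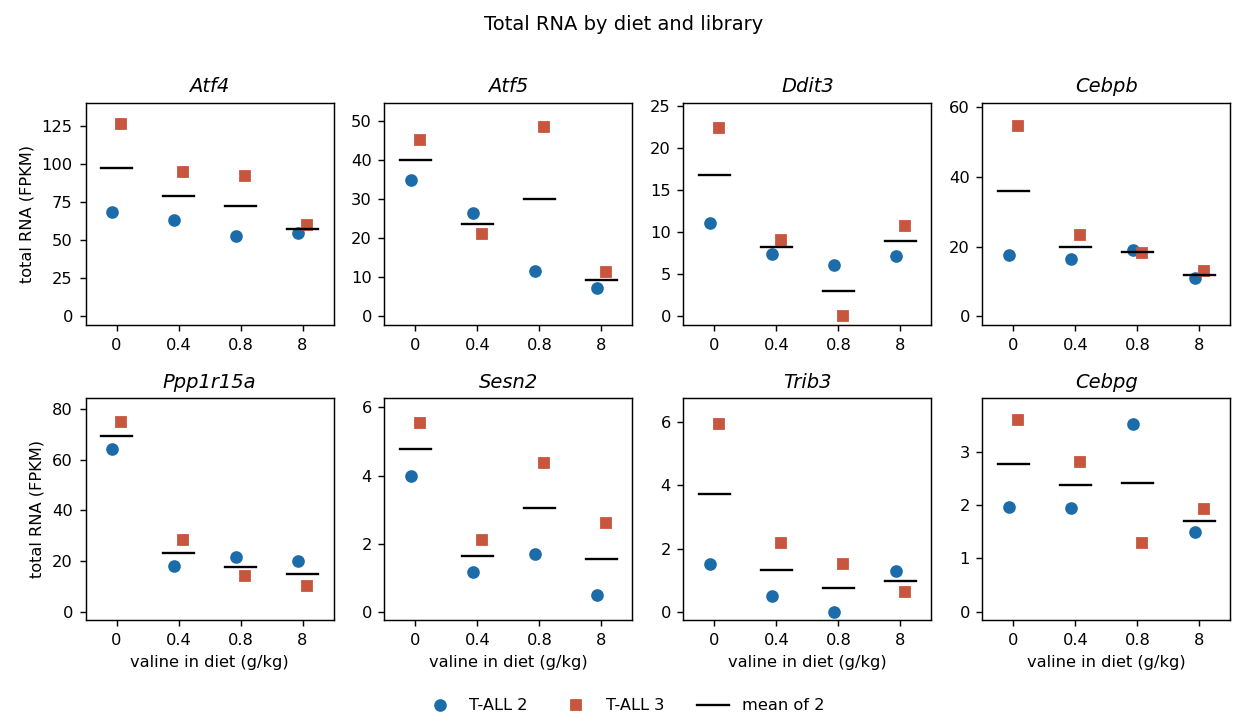
Total RNA of the 8 regulators that entered the test, in FPKM (linear axes that differ between genes), by grams of valine per kilogram of diet. Circles are T-ALL 2 libraries, squares T-ALL 3 libraries and bars the mean of 2. Both valine-free libraries of Ppp1r15a, at 64.3 and 74.7 FPKM, stand above all others, whereas the Atf5 squares at 0 and 0.8 g/kg, 45.1 and 48.6 FPKM, lie close together.

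Atf4, the transcription factor at the centre of the response, was the most abundant regulator in total RNA, with a mean of 76.3 FPKM over the 8 libraries. It had 68.1 and 126 FPKM (T-ALL 2 and T-ALL 3) at 0 g/kg, 63.4 and 94.3 FPKM at 0.4 g/kg, 52.9 and 91.7 FPKM at 0.8 g/kg, and 54.3 and 60.1 FPKM at 8 g/kg. T-ALL 3 was the higher library at every dose, and the valine-free libraries overlapped those with 0.4 and 0.8 g/kg but not those with 8 g/kg. The log2 difference at 0 against 8 g/kg was 0.69 ± 0.35 (limma, adjusted p = 0.82), and the pooled share of reads was 1.66 times as high (exact 95% counting interval 1.34 to 2.05).

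Atf5, a close relative of Atf4 with uORFs of the same kind, followed the diet in T-ALL 2 and departed from it in T-ALL 3. Its total RNA was 34.9 and 45.1 FPKM at 0 g/kg, 26.4 and 21.0 FPKM at 0.4 g/kg, 11.7 and 48.6 FPKM at 0.8 g/kg, and 7.22 and 11.4 FPKM at 8 g/kg. The T-ALL 2 values stand in the order of the doses, and the highest value of all came from T-ALL 3 at 0.8 g/kg. At 0 against 8 g/kg the log2 difference was 2.07 ± 0.56 (limma, adjusted p = 0.47, unadjusted p = 0.0053), and the pooled share of reads was 4.52 times as high (2.94 to 7.10).

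Ddit3 (CHOP), a C/EBP family member linked to cell death under lasting stress, had few total RNA reads. It stood at 11.2 and 22.4 FPKM at 0 g/kg (7 and 9 reads), 7.38 and 9.07 FPKM at 0.4 g/kg, 6.11 and 0 FPKM at 0.8 g/kg, and 7.22 and 10.7 FPKM at 8 g/kg. Both valine-free libraries were above all others, but the nearest of these, at 10.7 FPKM, was barely below the lower valine-free library. The log2 difference at 0 against 8 g/kg was 0.81 ± 0.99 (limma, adjusted p = 0.92).

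Cebpb and Cebpg are C/EBP factors that pair with ATF4 and its relatives on CARE sites. Cebpb had 17.5 and 54.5 FPKM at 0 g/kg, 16.3 and 23.4 FPKM at 0.4 g/kg, 18.9 and 18.2 FPKM at 0.8 g/kg, and 11.05 and 12.9 FPKM at 8 g/kg. Its high valine-free mean rested on the T-ALL 3 library, while the T-ALL 2 library lay among those with 0.4 and 0.8 g/kg. The log2 difference at 0 against 8 g/kg was 1.34 ± 0.46 (limma, adjusted p = 0.65, unadjusted p = 0.019). Cebpg ranged from 1.29 to 3.58 FPKM over all libraries, both of these extremes being T-ALL 3 libraries, and differed by 0.53 ± 0.62 (limma, adjusted p = 0.91).

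Among the targets that restrain growth or feed back on the response, Sesn2 encodes sestrin 2, a leucine-binding inhibitor of mTORC1 signalling, and Trib3 a pseudokinase that binds ATF4. Sesn2 had 4.00 and 5.55 FPKM at 0 g/kg, 1.176 and 2.11 FPKM at 0.4 g/kg, 1.70 and 4.38 FPKM at 0.8 g/kg, and 0.503 and 2.61 FPKM at 8 g/kg. T-ALL 3 was again the higher at every dose, and the valine-free T-ALL 2 library lay below T-ALL 3 at 0.8 g/kg. The log2 difference at 0 against 8 g/kg was 1.56 ± 0.71 (limma, adjusted p = 0.77), from 17 reads at 0 g/kg and 9 reads at 8 g/kg. Trib3 had 2 and 5 reads at 0 g/kg, against 3 and 1 reads at 8 g/kg, so its log2 difference of 1.34 ± 0.98 (limma, adjusted p = 0.88) rested on 11 reads.

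Atf3, a factor that ATF4 induces and that can repress transcription, had 0 and 1 total RNA reads at 0 g/kg, against 3 and 0 at 8 g/kg. Chac1, a glutathione-degrading enzyme, had 0 and 1 reads at 0 g/kg, against 0 in both libraries at 8 g/kg. Both genes are at or under 3 reads in each diet, so no difference was detectable at this depth and no fold is given.

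For the 8 regulators tested in total RNA the picture at 0 against 8 g/kg was therefore a shared direction without calls. By limma's adjusted p, 0 of 8 were called, against 0 of 10054 genes (0%). At an unadjusted p under 0.05, Atf5, Cebpb and Ppp1r15a were higher, against 6.58% of all genes in either direction. All 8 had a positive log2 difference, with a median of 1.34, against -0.04 over all genes, and in all 8 both valine-free libraries lay above both libraries at 8 g/kg, against 16.1% of all genes. Only Ddit3 and Ppp1r15a were also above every library at 0.4 and 0.8 g/kg, against 4.73% of all genes. A positive sign within T-ALL 2 and within T-ALL 3 for 8 of 8 genes follows from both valine-free libraries lying above both control libraries, and adds nothing to it.

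The size of these differences depended on T-ALL 3 at 0 g/kg. Without it the median log2 difference over the 8 genes was 0.51, and leaving out T-ALL 2 at 0 g/kg instead gave 1.96, with 8 of 8 positive in both cases. Summed over the 10 regulators, 3.90 and 6.44 of 10000 reads of total RNA fell on them at 0 g/kg (T-ALL 2 and T-ALL 3), 2.3 and 3.20 at 0.4 g/kg, 2.12 and 3.07 at 0.8 g/kg, and 1.80 and 1.84 at 8 g/kg. Most of these reads belong to Atf4 and Ppp1r15a, so the sum is mainly a statement about these genes.

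Every comparison within a fraction uses the same 2 libraries at 8 g/kg, so their values are set side by side and not correlated. Against the mean of the 3 diets with valine, 0 of 8 regulators passed (0% of all genes), and Atf5, Cebpb and Ppp1r15a again had an unadjusted p under 0.05, against 7.49% of all genes. Ddit3 differed by 1.63 ± 0.81, Trib3 by 1.44 ± 0.80, Sesn2 by 1.184 ± 0.58, Atf5 by 1.17 ± 0.46, Cebpb by 0.90 ± 0.38, Atf4 by 0.45 ± 0.29 and Cebpg by 0.31 ± 0.50 on the log2 scale (SE). At 0.4 against 8 g/kg 0 regulators passed (0% of all genes) and 7 of 8 were positive with a median of 0.40. At an unadjusted p under 0.05 there was Atf5 alone, at 1.33 ± 0.56, against 3.09% of all genes. At 0.8 against 8 g/kg 0 passed (0% of all genes) and 6 of 8 were positive with a median of 0.29. At an unadjusted p under 0.05 Atf5 was higher, at 1.35 ± 0.56, and Ddit3 lower, at -2.35 ± 0.99, against 3.45% of all genes. The Ddit3 value includes a T-ALL 3 library with 0 reads at 0.8 g/kg. Voom on reads called 0 genes in each of these 2 contrasts.

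In ribosome-protected fragments Ppp1r15a again stood out by level. It had 126 and 74.8 FPKM at 0 g/kg (32 and 19 reads), 14.96 and 27.0 FPKM at 0.4 g/kg (6 and 5 reads), 15.3 and 2.99 FPKM at 0.8 g/kg (9 and 1 reads), and 30.0 and 0 FPKM at 8 g/kg (4 and 0 reads). Both valine-free libraries were above all 6 others, and the 3 diets with valine overlapped. The pooled share of RPF reads was 8.10 times as high at 0 g/kg as over the 3 diets with valine (exact 95% counting interval 4.93 to 13.6). Against 8 g/kg alone it was 9.05 times as high (3.33 to 34.5). With limma the log2 difference was 4.65 ± 1.74 at 0 against 8 g/kg (adjusted p = 0.63) and 3.54 ± 1.42 against the 3 diets with valine (adjusted p = 0.92), with 0 reads in 1 of the control libraries. Within T-ALL 2 it was 2.06 and within T-ALL 3, which holds the library with 0 reads, 7.23. With voom on reads the contrast with the 3 diets gave 3.05 (adjusted p = 3.6e-05), as 1 of 18 genes that passed, and the contrast with 8 g/kg alone gave 3.55 (adjusted p = 0.085).

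Atf4 footprints did not follow the same order. RPF values were 83.7 and 103 FPKM at 0 g/kg, 97.5 and 132 FPKM at 0.4 g/kg, 105 and 190 FPKM at 0.8 g/kg, and 48.9 and 129 FPKM at 8 g/kg. In both T-ALLs the highest library was at 0.8 g/kg, and the valine-free libraries lay between the control libraries. The valine-free values rested on 13 and 16 reads and the control values on 4 and 18 reads (T-ALL 2 and T-ALL 3). The log2 difference was 0.22 ± 0.53 at 0 against 8 g/kg (limma, adjusted p = 0.99), 0.51 ± 0.53 at 0.4 and 0.83 ± 0.53 at 0.8 against 8 g/kg (limma, adjusted p = 0.81 and 0.93). The pooled share of RPF reads at 0 g/kg was 0.936 times that at 8 g/kg, with a counting interval of 0.519 to 1.71 that includes values on both sides of 1.

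Atf5 had 61.1 and 104 FPKM of RPF at 0 g/kg, 57.8 and 58.4 FPKM at 0.4 g/kg, 18.4 and 111 FPKM at 0.8 g/kg, and 34.8 and 0 FPKM at 8 g/kg. As in total RNA, the T-ALL 3 library at 0.8 g/kg was the highest of the 8. The 27 reads at 0 g/kg against 3 reads at 8 g/kg give a ratio of shares of 6.39 (counting interval 1.97 to 32.9), and the log2 difference was 4.25 ± 1.77 (limma, adjusted p = 0.69). That difference was 0.80 within T-ALL 2 and 7.70 within T-ALL 3, whose control library had 0 reads. Ddit3 had 45.8 and 45.7 FPKM at 0 g/kg (4 and 4 reads), 36.1 and 15.6 FPKM at 0.4 g/kg, 34.4 and 26.0 FPKM at 0.8 g/kg, and 0 and 12.7 FPKM at 8 g/kg (0 and 1 reads). Its values stand above all other libraries at 0 g/kg and lowest at 8 g/kg, on 25 reads in all, with a log2 difference of 4.17 ± 1.37 (limma, adjusted p = 0.59). It was 6.53 within T-ALL 2, whose control library had 0 reads, and 1.80 within T-ALL 3.

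Cebpb had 29.5 and 51.5 FPKM of RPF at 0 g/kg, 23.3 and 20.1 FPKM at 0.4 g/kg, 28.5 and 16.7 FPKM at 0.8 g/kg, and 0 and 24.6 FPKM at 8 g/kg. The valine-free libraries were the 2 highest, with T-ALL 2 at 29.5 FPKM close to the 28.5 FPKM of the same T-ALL at 0.8 g/kg, and the log2 difference of 3.48 ± 1.58 (limma, adjusted p = 0.73) rests on 11 reads at 0 g/kg against 3 at 8 g/kg. It was 5.91 within T-ALL 2, whose control library had 0 reads, and 1.049 within T-ALL 3. Atf3, Cebpg, Trib3, Chac1 and Sesn2 had 0 RPF reads in both libraries at 8 g/kg and 1 or 2 reads in all at 0 g/kg, so no fold is read from them, and their fitted RPF and TE values, where given, depend on the pseudocount. When T-ALL 3 at 0 g/kg was left out of the limma fit, Atf3 passed against 8 g/kg (adjusted p = 0.047) and against the 3 diets with valine (adjusted p = 0.027), a call that rests on 2 reads in 1 library.

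**Figure D2:**
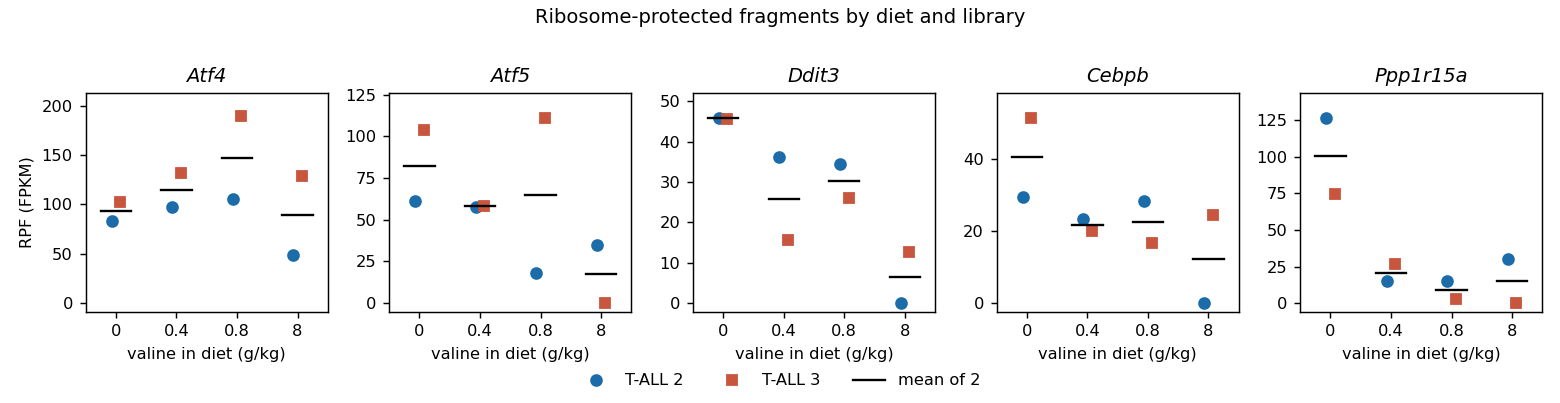
Ribosome-protected fragments of the 5 regulators with at least 25 RPF reads, in FPKM (linear axes that differ between genes), by grams of valine per kilogram of diet. Circles are T-ALL 2 libraries, squares T-ALL 3 libraries and bars the mean of 2. Ppp1r15a and Ddit3 are highest at 0 g/kg, and Atf4 is highest at 0.8 g/kg, with 105 and 190 FPKM.

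Over the RPF comparisons (0 against 8 g/kg, 0 against the 3 diets with valine, and 0.4 and 0.8 against 8 g/kg) 0 of 9 tested regulators passed limma's adjusted p in each, against 0% of 9718 genes in each; voom called 5, 18, 0 and 0 genes in the same order of contrasts, with Ppp1r15a as the single regulator. At 0 against 8 g/kg, 3 regulators had an unadjusted p under 0.05 (Atf5, Ddit3 and Ppp1r15a), against 7.17% of all genes. Against the 3 diets with valine it was Ppp1r15a alone, against 4.98% of all genes. At 0.4 and at 0.8 against 8 g/kg it was Ddit3 alone, at 3.24 ± 1.37 and 3.56 ± 1.37, against 6.67% and 5.58% of all genes. Both valine-free libraries lay above both control libraries for 4 of 9 regulators (Atf5, Ddit3, Cebpb and Ppp1r15a), against 16.7% of all genes, and above all 6 libraries with valine for Ddit3, Cebpb and Ppp1r15a, against 3.73%. The median over all genes was not at 0 in these comparisons, being 0.12 at 0 against 8 g/kg and 0.30 at 0.8 against 8 g/kg, and these shifts are part of the differences given above.

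TE asks whether footprints changed more than the mRNA. Over all libraries, the mean RPF level divided by the mean total RNA level was 2.92 for Ddit3, above 98.5% of 9361 genes, 2.16 for Atf5, above 95.6%, and 1.46 for Atf4, above 83.4%. The median gene had 0.874, and 80% of genes lay between 0.395 and 1.71. The Ddit3 ratio rests on 25 RPF reads and 50 total RNA reads, with 0 reads in 1 library of each fraction. Where both fractions had reads, its library ratios ran from 1.19 to 5.64, so its rank is uncertain. Ratios of other tested regulators were 1.16 for Ppp1r15a and 1.13 for Cebpb, and none is given for Trib3 and Cebpg, which had 4 and 5 RPF reads over the 8 libraries. The values count footprints per gene, and the region over which the reads were counted is not given in the sources used here, so footprints on uORFs and on the main reading frame are not separated.

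Between diets, 0 of 7 regulators passed for TE in any of the 4 comparisons, against 0% of all genes in each, and voom's test on reads also called 0 genes. No regulator had an unadjusted p under 0.05 at 0 against 8 g/kg (6.58% of all genes), at 0 against the 3 diets with valine (4.88%) or at 0.4 against 8 g/kg (6.68%). At 0.8 against 8 g/kg Ddit3 did, with 5.92 ± 1.56 (limma, adjusted p = 0.55), against 6.23% of all genes. That value joins 0 total RNA reads in 1 library at 0.8 g/kg with 0 RPF reads in another at 8 g/kg.

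For Atf4, the regulator with the most reads, the RPF level divided by the total RNA level was 1.23 and 0.816 at 0 g/kg, 1.54 and 1.40 at 0.4 g/kg, 1.99 and 2.07 at 0.8 g/kg, and 0.901 and 2.14 at 8 g/kg. The valine-free ratios, on 13 and 16 RPF reads, were below all 4 ratios at 0.4 and 0.8 g/kg. They were not below both control ratios, since 0.901 in T-ALL 2 lies between them. How many of all genes show that order was not computed, so no weight is given to it. The control ratios lay far apart, that of T-ALL 2 resting on 4 RPF reads and that of T-ALL 3 on 18. The TE difference was -0.47 ± 0.57 at 0 against 8 g/kg and -0.68 ± 0.46 against the 3 diets with valine (limma, adjusted p = 0.93 and 0.98). Ppp1r15a had ratios of 1.97 and 1.002 at 0 g/kg, 0.823 and 0.958 at 0.4 g/kg, and 0.711 and 0.212 at 0.8 g/kg. At 8 g/kg it had 1.51 in T-ALL 2 and no footprint in T-ALL 3. Its TE difference of 2.4 ± 1.58 (limma, adjusted p = 0.88) became -0.09 without the T-ALL 3 libraries at 8 g/kg. Within T-ALL 2 it was 0.39 and within T-ALL 3, whose control RPF library had 0 reads, 4.41. The size thus depends on a library with 0 reads, and the sign without that library is uncertain. Against the 3 diets with valine the TE difference was 1.60 ± 1.29 (limma, adjusted p = 0.98).

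**Figure D3:**
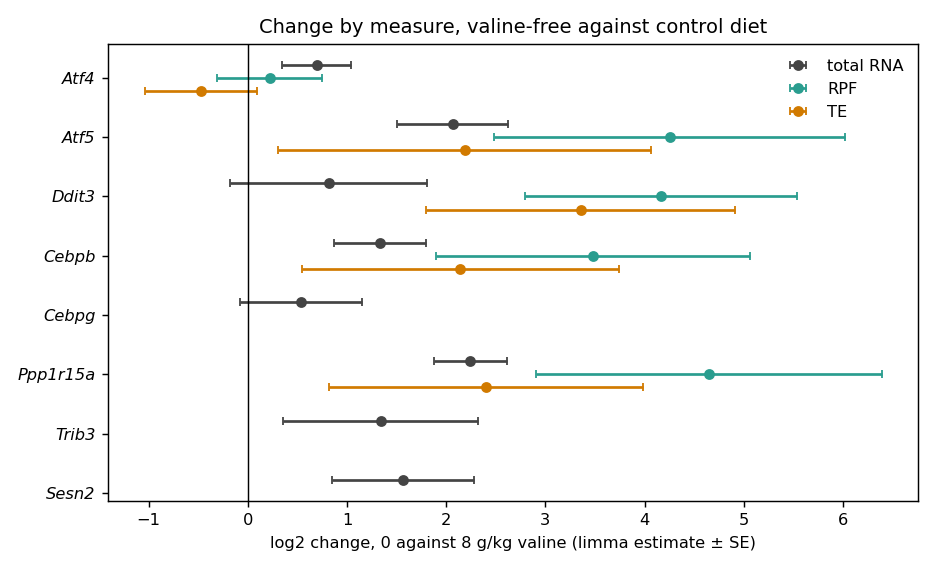
Log2 difference at 0 against 8 g/kg valine for 8 regulators in total RNA, RPF and TE (points), with the SE of the limma fit (bars). Sesn2 was tested in total RNA alone, and Cebpg and Trib3 are shown in total RNA alone because they had 0 RPF reads at 8 g/kg. The 8 total RNA points lie to the right of 0, with bars that cross 0 for Ddit3 (0.81 ± 0.99) and Cebpg (0.53 ± 0.62). The RPF and TE bars of Atf5, Ddit3, Cebpb and Ppp1r15a are wide, those of Atf4 are narrower, and its TE point is the one below 0.

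The rest of the pathway was read from gene lists. Beside them, 45.9% of all 10054 genes tested in total RNA were higher at 0 against 8 g/kg. An unadjusted p under 0.05 was found for 6.58% of all genes, 258 of them higher and 404 lower. Of the eIF2α kinases and their coactivators, 6 of 7 entered the total RNA test, 2 of them higher and 4 lower at 0 against 8 g/kg, with a median of -0.21. Of 8 subunits of eIF2 and of its exchange factor eIF2B, 2 were higher and 6 lower, with a median of -0.24. Of 5 partners of the eIF2α phosphatase other than Ppp1r15a, 2 were higher and 3 lower, with a median of -0.02. None of these 19 genes passed limma's adjusted p or had an unadjusted p under 0.05, and voom called no other regulator than Ppp1r15a.

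Targets of ATF4 in amino acid metabolism were mostly higher. Of 18 tested, 16 were higher and 2 lower, with a median of 0.64. At an unadjusted p under 0.05 there were 9, all of them higher (6.58% of all genes), with 0 past limma's adjusted p. Asns, which makes asparagine and is the usual reporter of the amino acid response, had 49.8 and 56.2 FPKM at 0 g/kg, 22.3 and 12.3 FPKM at 0.4 g/kg, 8.22 and 46.8 FPKM at 0.8 g/kg, and 3.47 and 1.93 FPKM at 8 g/kg. As for Atf5, the T-ALL 3 library at 0.8 g/kg was close to the valine-free level and the T-ALL 2 library was not. The log2 difference of Asns was 4.10 ± 0.68, that of the mitochondrial PEP carboxykinase Pck2 1.85 ± 0.29, and that of the one-carbon enzyme Mthfd2 1.31 ± 0.25 (limma, adjusted p = 0.20, 0.17 and 0.27).

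Of 7 tested ATF4 targets of signalling and secretion, 4 were higher and 3 lower, with a median of 0.15. At an unadjusted p under 0.05 (6.58% of all genes) 1 was higher and 1 lower. These were Stc2, at 2.84 ± 0.82, and Ndrg1, at -0.996 ± 0.33. Of 21 cytosolic tRNA synthetases and export factors, 14 were higher and 7 lower, with a median of 0.10. At an unadjusted p under 0.05 there were 4, all higher (6.58% of all genes). The 16 genes of the unfolded protein response of the endoplasmic reticulum were higher in 14 cases, with a median of 0.32. Of these 16, 2 had an unadjusted p under 0.05 (6.58% of all genes). Of 9 tested further mRNAs with known uORF control, 2 were higher and 7 lower in total RNA, with a median of -0.21. Of 13 tested bZIP factors that can pair with the regulators, 9 were higher and 4 lower, with a median of 0.29. At an unadjusted p under 0.05 there were 3, all higher (6.58% of all genes). They were Jun, Fos and Junb, and Jun and Fos are counted again among the immediate early genes below. Of 11 tested heat shock genes 7 were higher and 4 lower, with a median of 0.06. An unadjusted p under 0.05 (6.58% of all genes) was found for 2, Hspa1a and Hspa1b, which encode inducible HSP70. Hspa1a had 140 and 214 FPKM of total RNA at 0 g/kg, against 11.8 and 4.37 FPKM at 8 g/kg, a log2 difference of 4.49 ± 0.70 (limma, adjusted p = 0.17). Hspa1b had 14.3 and 14.6 FPKM at 0 g/kg, against 0 reads in both libraries at 8 g/kg (limma, adjusted p = 0.17). These genes are near-identical copies, so how reads were split between them is uncertain. No gene of these lists passed limma's adjusted p.

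In TE at 0 against 8 g/kg, 8 of the 9 further mRNAs with uORF control were higher, with a median of 0.997. Over all genes 57.5% were higher, with a median of 0.20. Of the 9 mRNAs, 0 had an unadjusted p under 0.05 and 0 passed limma's adjusted p. Against the 3 diets with valine, 7 of the 9 were higher with a median of 0.59, against 53.5% and 0.07 over all genes. The diets with some valine gave the same direction. At 0.4 against 8 g/kg 9 of 9 were higher, with a median of 1.01, against 55.2% and 0.14 over all genes. At 0.8 against 8 g/kg it was 8 of 9, with a median of 0.59, against 64.8% and 0.36 over all genes. All these contrasts use the libraries at 8 g/kg. Some lists not chosen for uORFs were higher in TE too. At 0 against 8 g/kg, 6 of 6 tested eIF2α kinases and coactivators were higher, with a median of 0.38. Of 8 eIF2 and eIF2B subunits, 6 were higher there and 7 at 0.8 against 8 g/kg, with medians of 0.44 and 1.15. ATF4 targets of signalling and heat shock genes were mostly lower at 0 against 8 g/kg (1 of 7 and 3 of 11 higher). Whether the rise is particular to uORF mRNAs was not tested. The 10 uORF mRNAs measured took 16.1 and 12.4 of 10000 RPF reads at 0 g/kg (T-ALL 2 and T-ALL 3). They took 16.9 and 14.4 at 0.4 g/kg, 12.5 and 12.6 at 0.8 g/kg, and 7.89 and 13.0 at 8 g/kg. The lowest of these shares is that of T-ALL 2 at 8 g/kg, the shallowest RPF library with 41848 reads.

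Genes of other kinds varied along with the diet in the same libraries. Immediate early genes, which cells switch on within minutes of a stimulus, include Jun and Fos, and Ppp1r15a and Atf3 are known to answer to such stimuli too. All 14 tested were higher at 0 than at 8 g/kg in total RNA, with a median of 1.01. An unadjusted p under 0.05 was found for 6 of them (6.58% of all genes). The list took 13.4 and 18.1 of 10000 reads of total RNA at 0 g/kg, 7.83 and 11.8 at 0.4 g/kg, 8.68 and 5.40 at 0.8 g/kg, and 9.39 and 6.23 at 8 g/kg. Dusp1, a phosphatase of this list, had 60.1 and 88.6 FPKM at 0 g/kg and 36.3 and 14.6 FPKM at 8 g/kg.

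The 11 neutrophil markers took 4.72 and 2.22 of 10000 reads of total RNA at 0 g/kg, 0.333 and 0.723 at 0.4 g/kg, 0.273 and 0.110 at 0.8 g/kg, and 0.181 and 0.165 at 8 g/kg. In RPF they took 27.6 and 3.41 of 10000 reads at 0 g/kg, against 0.239 and 0.420 at 8 g/kg. Mpo had 28.1 and 3.51 FPKM of total RNA at 0 g/kg and 0 reads in both libraries at 8 g/kg, and S100a8 had 140 and 67.8 FPKM at 0 g/kg and 5.27 and 2.60 FPKM at 8 g/kg. In the total RNA test 11 of 11 were higher at 0 than at 8 g/kg, with a median of 4.05. Of these 10 had an unadjusted p under 0.05 (6.58% of all genes) and 0 passed limma's adjusted p. Further, 0 of the 11 were without reads in both valine-free libraries, against 1 in both control libraries. Among the valine-free libraries the neutrophil share was higher in T-ALL 2, whereas the regulators' share was higher in T-ALL 3.

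The 10 erythroid markers took 0.298 and 0.280 of 10000 total RNA reads at 0 g/kg, against 1.67 and 4.20 at 8 g/kg. All 8 tested were lower, with a median of -2.72. Of the 8, 6 had an unadjusted p under 0.05 (6.58% of all genes) and 0 passed limma's adjusted p. Of the 10, 3 were at 0 in both valine-free libraries. The 9 macrophage and monocyte markers took 0.227 and 0.233 at 0 g/kg, against 0.173 and 0.201 at 8 g/kg, and the 2 measured B cell markers took 0.142 and 0.654, against 0.0394 and 0.0473. The 12 T cell markers, which check the sorted cells, took 50 and 49.2 at 0 g/kg, against 47.8 and 55.4 at 8 g/kg, with none at 0 in any diet. Of the 12, 5 were higher and 7 lower, with a median of -0.02. At an unadjusted p under 0.05 (6.58% of all genes) 1 was higher, Cd5 at 0.68 ± 0.27, and 1 lower, Cd3d at -0.46 ± 0.16. Of the 12, 0 passed limma's adjusted p. The part of the immediate early, neutrophil and erythroid genes in the differences of the regulators was not tested.

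**Figure D4:**
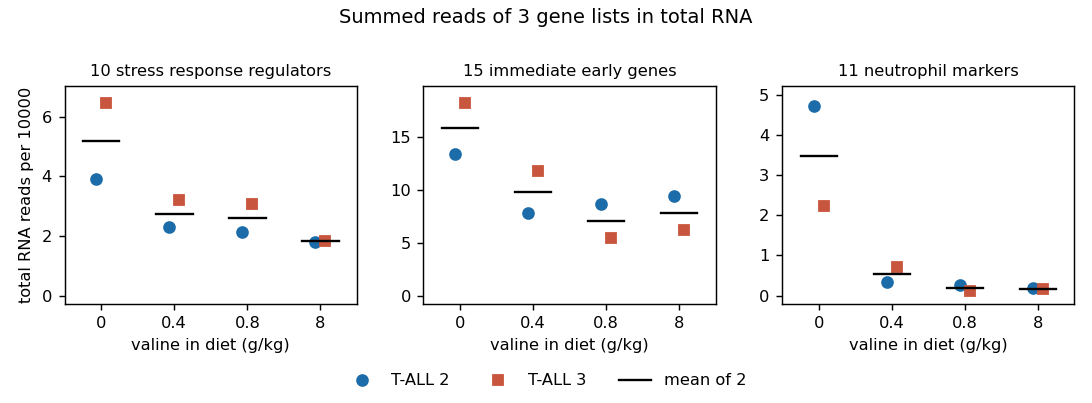
Reads per 10000 total RNA reads of the 10 regulators, 15 immediate early genes and 11 neutrophil markers (linear axes that differ between lists), by grams of valine per kilogram of diet. Circles are T-ALL 2 libraries, squares T-ALL 3 libraries and bars the mean of 2. All lists are highest at 0 g/kg, where T-ALL 3 is the higher library for the regulators (6.44) and T-ALL 2 for the neutrophil markers (4.72).

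The regulators were not tightly tied to one another. Over the 8 total RNA libraries, which share diets and depths, 25 of 28 pairs of the 8 tested regulators had a positive Pearson correlation of log2 values, with a median of 0.52. The range ran from -0.25 for Atf5 with Ddit3 to 0.86 for Atf4 with Trib3, and Ppp1r15a had 0.51 with Atf4 and 0.70 with Cebpb. Of 10046 other genes, those whose profile was closest to the mean standardised profile of the 8 regulators over the same 8 libraries were Fance (r = 0.96), Dock10 (r = 0.96) and Mdn1 (r = 0.95). These are given as a description of 8 points.

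By mean total RNA over the 8 libraries, per length, the order of the regulators was Atf4 (76.3 FPKM), Ppp1r15a (31.4), Atf5 (25.8), Cebpb (21.6), Ddit3 (9.25), Sesn2 (2.75), Cebpg (2.32) and Trib3 (1.70). The ranges over libraries of Ppp1r15a (10.1 to 74.7 FPKM), Atf5 (7.22 to 48.6 FPKM) and Cebpb (11.05 to 54.5 FPKM) overlapped, so the order among these 3 does not exceed their spread. The same holds for Sesn2, Cebpg and Trib3. In the valine-free libraries Ppp1r15a, at 64.3 and 74.7 FPKM, lay close to the T-ALL 2 value of Atf4, 68.1 FPKM, whereas at 8 g/kg it lay far below both Atf4 values, 54.3 and 60.1 FPKM.

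In the genome (GRCm38) Ppp1r15a lies on chromosome 7 from 45522917 to 45526268, Atf5 on chromosome 7 from 44812256 to 44816658 and Cebpg on chromosome 7 from 35046422 to 35056566. Atf4 lies on chromosome 15 from 80255184 to 80257545 and Ddit3 on chromosome 10 from 127290793 to 127296291. Cebpb, Trib3 and Chac1 lie on chromosome 2, Atf3 on chromosome 1 and Sesn2 on chromosome 4.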

How the data were processed

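The deposited table gives FPKM for 12012 genes in 16 libraries. Per the submitters' processing notes the authors worked with builds mm10 and GRCm38 and with edgeR 3.14.0, STAR 2.5.0c, Bowtie2 2.3.4 and cutadapt 1.18. What each tool did, the counting region, strand handling and the FPKM formula are not stated there or elsewhere in the labels. Dividing each value by the step worth 1 read recovered the counts. The step of a gene was the largest that made all its values whole. Wholeness to within 0.02 reads in 100% of 149988 non-zero values was thus a condition of the method and no check of the counts. Counts of a gene that share a divisor in all libraries would come out too low. On simulated data 98.0% of 11965 genes were recovered.

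Each fraction was fitted with limma 3.58.1 (R 4.3.3; eBayes with trend) to log2(FPKM + 0.5) values of its 8 libraries, diet being the factor, for genes with a mean of at least 1 FPKM. TE was fitted alike on differences of log2 values. P-values are two-sided, adjusted by Benjamini-Hochberg over all genes tested, and called at 0.05. An exact permutation test of 2 against 2 cannot go below 0.333 and was not run.

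Alternatives were other pseudocounts and filters, quantile normalization, thinning to equal depth, voom with TMM factors on the recovered reads, the T-ALL number as a block, only the libraries compared, and each library left out. The labels do not say what samples of a T-ALL number share, so the main fits did not pair diets by it. Correlations of T-ALL 2 minus T-ALL 3 differences between diets ran from -0.04 to 0.25 in total RNA and from -0.02 to 0.07 in RPF. Some diets thus shared a part of this difference in total RNA, and whether T-ALL numbers pair the samples was not tested. Fits with the block are given below.

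The members and gene lists were chosen with earlier results of these data known. Named genes are the 10 regulators, Asns, up to 3 genes of a list by unadjusted p in total RNA at 0 against 8 g/kg, S100a8, Mpo and the 3 closest profiles; not all are printed. Ppp1r15b is among the 3 of its list. Gene positions and promoters are from RefSeq (GRCm38.p6). Counting intervals are exact (Clopper-Pearson) and cover counting error only.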

Additional observations from a re-analysis of the deposited data

Results flagged for a closer look

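For 5 regulators the difference at 0 against 8 g/kg had opposite signs in the T-ALLs. Each T-ALL has 1 library per diet, so the difference between them was not tested. In RPF, Atf4 differed by 0.77 on the log2 scale in T-ALL 2 and by -0.33 in T-ALL 3. In TE, Atf4 differed by 0.45 in T-ALL 2 and by -1.39 in T-ALL 3. Atf5 differed by -1.39 in T-ALL 2 and by 5.76 in T-ALL 3, where the control RPF library had 0 reads. Cebpb differed by 5.27 in T-ALL 2, where the control RPF library had 0 reads, and by -0.99 in T-ALL 3. Cebpg differed by 2.20 and -0.75, and Trib3 by 3.41 and -2.50, both with 0 RPF reads in both control libraries. In T-ALL 3 they had 0 RPF reads at 0 g/kg as well, so the negative values there are the total RNA differences with the sign turned. In total RNA no tested regulator had opposite signs, which follows from both valine-free libraries lying above both libraries at 8 g/kg.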

How the results depend on the processing

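In total RNA at 0 against 8 g/kg the 8 tested regulators (5 with a minimum mean of 5 FPKM) had a positive difference under every alternative run. At 0 against the 3 diets with valine, 0 genes were called in total RNA as reported, 1 with a minimum mean of 5 FPKM, 1 with quantile normalization, 3 after thinning and 26 with voom. At 0 against 8 g/kg in total RNA, 3 genes were called with voom and 2 after thinning. With no filter on low values, RPF gave 47 calls at 0 against 8 g/kg, 57 against the 3 diets with valine, 18 at 0.4 and 64 at 0.8 against 8 g/kg. Voom called 5 and 18 genes in the RPF contrasts of 0 g/kg, and quantile normalization called 2 against the 3 diets with valine. With the T-ALL number as a replicate block, 0 genes were called in each of the 12 comparisons, and Ppp1r15a in total RNA at 0 against 8 g/kg had an adjusted p of 0.23 (limma). With that block 5 of 8 regulators had an unadjusted p under 0.05 in total RNA at 0 against 8 g/kg (6.82% of all genes) and 5 of 8 against the 3 diets with valine (7.78%), compared with 3 in each without it. The median of the 9 regulators in RPF at 0 against 8 g/kg was 2.27 as reported, 1.36 with a pseudocount of 2 and 0.62 with voom. The 2.27 is the fitted value of Atf3, which rests on 2 reads in 1 library. Atf3, Cebpg, Trib3 and Chac1 had 0 RPF reads at 8 g/kg, so this median is no fold of the regulators.

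Leaving out 1 library at a time gave 0 to 2 calls in total RNA at 0 against 8 g/kg, 0 to 20 against the 3 diets with valine (20 without T-ALL 2 at 0 g/kg) and 0 to 28 at 0.8 against 8 g/kg (28 without T-ALL 2 at 0.8 g/kg). In RPF it gave 0 to 56 calls at 0 against 8 g/kg (56 without T-ALL 3 at 0 g/kg) and 0 to 70 against the 3 diets with valine (70 without the same library). A diet left with 1 library is assumed to vary like the others. The adjusted p of Ppp1r15a in total RNA at 0 against 8 g/kg ran from 0.14 to 1 over these fits.

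Values of Cebpg, Trib3 and Chac1 in RPF and TE depend on the pseudocount and are no fold. Signs turned for regulators with few reads or small differences, and the cause was not tested. In RPF against the 3 diets with valine, Cebpg was at -0.00046 with voom, -0.10 with quantile normalization and -1.13 after thinning, and Atf4 at 0.091 after thinning. In TE at 0 against 8 g/kg, Cebpg was at -0.40, -0.21 and -0.39 and Trib3 at -1.21, -0.26 and -0.11 under the same 3 settings, and against the 3 diets with valine Ddit3 was at -0.27 with voom. With 1 library left out, ranges that cross 0 were, in total RNA against the 3 diets with valine, -0.052 to 0.67 for Cebpg. In RPF they were -0.47 to 0.92 for Atf4 at 0 against 8 g/kg and, against the 3 diets with valine, -0.46 to 0.0070 for Atf4, -1.20 to 1.31 for Cebpg, -1.19 to 2.39 for Trib3 and -0.58 to 3.28 for Chac1. In TE at 0 against 8 g/kg they were -1.09 to 0.15 for Atf4, -1.20 to 5.57 for Atf5, -0.57 to 4.86 for Cebpb, -0.90 to 2.35 for Cebpg, -2.17 to 3.08 for Trib3 and -0.093 to 4.90 for Ppp1r15a. In TE against the 3 diets with valine they were -0.47 to 1.79 for Atf5, -0.43 to 0.97 for Ddit3, -0.10 to 1.71 for Cebpb, -1.88 to 1.36 for Cebpg and -3.47 to 1.78 for Trib3.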
